A study of Mus musculus with 48 samples.

Results

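The genes described here are 38 proliferation and mitosis genes in the livers of mice after an advance of the light schedule. They were taken by symbol from a table of 54532 genes, in which each symbol had 1 row, and were followed across 48 liver RNA libraries. Of the 38, 10 act in S phase (the copying of DNA), 12 are mitotic cyclins, mitotic kinases or the transcription factor FOXM1, 8 build the spindle or the kinetochore, 3 act in cytokinesis, 3 in anaphase and the exit from mitosis, and 2 in chromosome structure.

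All mice were wild-type male C57BL/6 animals of 8 to 10 weeks, without any allele added or removed. In the 24 shifted libraries the mice had gone through a single advance of the light cycle by 6 h. In the 24 control libraries they had stayed on a stable cycle of 12 h light and 12 h dark. Livers were taken every 4 h, with 4 libraries in each of the 12 groups. The 6 labelled zeitgeber times (ZT, counted in hours from lights-on) were ZT0, 4, 8, 12, 16 and 20, from the middle of day 6 to the middle of day 7 after the advance. Since the labels give every sample the same treatment, the arms come from the titles, and the labels do not say from which lights-on ZT is counted in the shifted arm. Whole frozen liver was extracted, so a signal may come from any cell of the organ, and fewer cells of a type cannot be told apart from less RNA per cell.

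In the adult liver nearly all hepatocytes rest outside the cell cycle, and they return to it after loss of tissue or injury. On the way into S phase, E2F factors switch on the genes for nucleotide supply and for the MCM helicase, which unwinds DNA at replication origins. Later the MuvB complex, first with B-MYB and then with FOXM1, drives the G2 and M phase genes, and in resting cells the DREAM complex, with MuvB at its core, keeps the same genes low through promoter elements named CHR, close to CCAAT boxes that bind NF-Y.

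The letters of these elements were searched in the promoters of the genes. Of the 38 genes, 31 had a promoter window in the RefSeq table of build GRCm38.p6, from 250 bases before to 50 bases after the transcription start, and Aurkb, Ccna2, Ccne2, Foxm1, Kif20a, Pbk and Tpx2 had none there. TTTGAA, the CHR letters, stood on either strand in 17 of the 31 windows (54.8%), against 20.2% of the windows of 27025 genes. By role it was found in all 3 windows of the anaphase genes, in both windows of cytokinesis and of chromosome structure, in 5 of 8 of the cyclin and kinase group, in 4 of 7 of the spindle genes, and in 1 of 9 of the S-phase genes. The variant TTCGAA stood in 3 windows (9.68%, against 1.8%). CCAAT stood in 25 windows (80.6%, against 41.1%) and at least 2 copies of it in 16 (51.6%, against 13.3%). An E2F site, searched as TTTCCCGC, TTTGGCGC or TTTCGCGC on both strands, stood in 4 windows (12.9%, against 2.12%), 3 of them S-phase genes. The 31 genes had 32 windows, and for 27 of these the last bases lay in an annotated transcript of the gene. The windows of Cdca3 and Cdca8 lay inside the gene as bounded in the count table, so they are not upstream of that start. The share of genes with these letters is a description, and a match is not a measured binding site.

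The promoters of Cdc20, Cdk1, Top2a and Mcm6 show the arrangement, each given 5′ to 3′ on the strand of the gene over the 150 bases before the start, with the CHR letters, their variant, CCAAT and the E2F letters on either strand in capitals, overlapping matches being run together. The stretches lie at Cdc20 (chr4:118437344-118437493, minus strand), Cdk1 (chr10:69352913-69353062, minus strand), Top2a (chr11:99024190-99024339, minus strand) and Mcm6 (chr1:128359706-128359855, minus strand), which stand for the anaphase, kinase, chromosome and S-phase roles.
Cdc20: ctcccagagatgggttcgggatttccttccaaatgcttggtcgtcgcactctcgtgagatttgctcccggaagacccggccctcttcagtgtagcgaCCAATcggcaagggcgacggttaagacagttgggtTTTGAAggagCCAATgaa
Cdk1: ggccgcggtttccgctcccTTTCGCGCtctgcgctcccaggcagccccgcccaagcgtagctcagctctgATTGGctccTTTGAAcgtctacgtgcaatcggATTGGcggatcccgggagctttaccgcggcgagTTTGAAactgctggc
Top2a: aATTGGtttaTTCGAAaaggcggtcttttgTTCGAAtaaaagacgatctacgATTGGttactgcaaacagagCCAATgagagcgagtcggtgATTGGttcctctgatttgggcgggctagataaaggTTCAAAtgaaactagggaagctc
Mcm6: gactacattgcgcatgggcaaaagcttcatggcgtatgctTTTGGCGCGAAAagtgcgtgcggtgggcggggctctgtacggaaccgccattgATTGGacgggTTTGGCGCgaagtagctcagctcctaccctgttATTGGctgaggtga
Cdc20 has the CHR letters just upstream of a CCAAT box near the start site. Cdk1 has 2 copies of the CHR letters, 2 of CCAAT and 1 of E2F. Top2a carries 4 copies of CCAAT, 2 of TTCGAA and 1 of TTTGAA in this stretch, whereas Mcm6 has 3 E2F matches, 2 of which overlap, 2 copies of CCAAT and none of the CHR letters.

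Outside a single library, the genes were at a low level in all livers. Levels between genes are compared in FPKM, counts per length and library. The median over the 48 libraries was 10.6 FPKM for Pcna, the clamp that holds DNA polymerases on their template, and 4.76 for Tk1, the thymidine kinase of nucleotide salvage. Rrm2, the regulated subunit of ribonucleotide reductase, followed with 1.8 FPKM, Mcm3 with 1.11 and Tyms, thymidylate synthase, with 1.06. The mitotic genes lay lower, with Aurka (Aurora A kinase, of the spindle poles) at 0.905 FPKM, Cdca3 at 0.36, Mki67 at 0.135 and Bub1, a spindle checkpoint kinase, at 0.0132 FPKM. All other values below are CPM, the count scaled to the library total. The libraries held 15370303 to 19639753 counts, so a count of 0 allows up to 3 counts or 0.153 to 0.195 CPM, and this bound covers counting error only. Of the 38 genes, 32 passed the filter on low counts. Ccnb1, Bub1, Plk1, Melk, Pbk and Hmmr did not and were not tested, although all 6 were well counted in a single library.

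That library was phase_shift ZT20 replicate 2. In it all 38 genes had their highest level of the 48 libraries, and together they summed to 1324 CPM, against 73.2 to 144 CPM (median 99.5) in the other 47. The next highest sum, 144 CPM, was that of phase_shift ZT20 replicate 4. With 50 or more counts in the library and at least 3 times the level of any other library, 31 of the 38 genes and 170 of all 54532 genes passed there, 166 of the 170 coding for protein. The same rule was met by a median of 0 genes in the other libraries and by none in 39 of the 47, and the most, 39 genes, were in control ZT0 replicate 3. The library was not unusual in depth, with 17625159 counts, or in the share of mitochondrial transcripts, which was 7.01% against a median of 7.12% over all libraries.

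**Figure D1:**
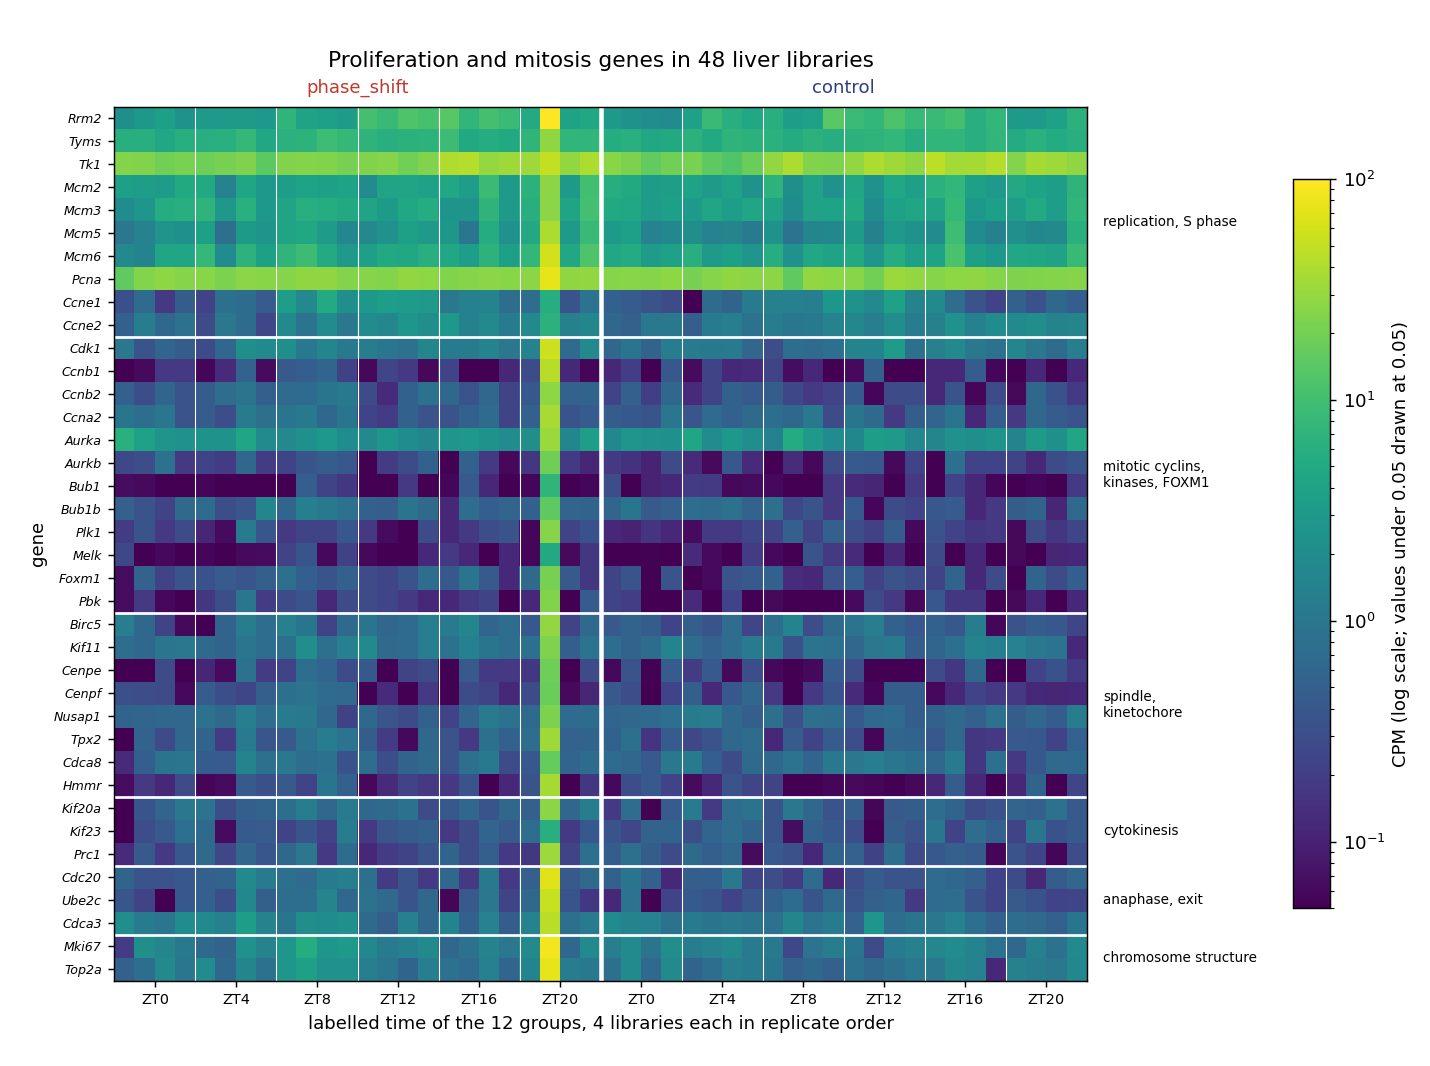
Level of each of the 38 genes (rows, grouped by role) in each of the 48 libraries (columns, phase_shift left and control right, 4 libraries per labelled time in replicate order), as CPM on a logarithmic colour scale. The second column of phase_shift ZT20 stands out in every row, with a sum of 1324 CPM, against at most 144 CPM in any other library.

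The mitotic genes departed further than the S-phase genes. Cyclin B1, encoded by Ccnb1, is the partner that activates CDK1 at entry into mitosis. It had 44.2 CPM in the library, against 0 to 0.592 CPM in the other 47, a ratio to the highest other library of 74.7. Cdk1 itself had 56.7 CPM, against 0.286 to 3.3 CPM. The 12 genes of this role summed to 315 CPM in the library and to 4.3 to 12.7 CPM elsewhere. Foxm1 had 21.1 CPM, against 0 to 0.943 CPM, and Plk1, the polo-like kinase of centrosomes and cytokinesis, had 25.5 CPM, against 0 to 1.16 CPM. Aurka was the least raised of the role by ratio, with 32.0 CPM, 5.22 times the highest other library. Ccna2, the cyclin A gene of S and G2 phase, had 36.8 CPM and 33.3 times, and Ccnb2 27.6 CPM and 25.7 times. The kinase genes Pbk, Aurkb (of the chromosomal passenger complex), Bub1 and Melk had 23.9, 19.3, 7.26 and 5.05 CPM, at 24.4, 21.8, 15.1 and 14.0 times, and Bub1b, of the spindle checkpoint, had 15.2 CPM, at 9.24 times.

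Cdc20, which activates the anaphase-promoting complex, had 69.6 CPM, 39.2 times the highest of the other libraries, and Ube2c, the ubiquitin-conjugating enzyme of that complex, had 52.3 CPM, 30.5 times. Cdca3, another regulator of ubiquitin-dependent mitotic entry, had 45.0 CPM, 12.9 times the highest other level. The 3 anaphase genes summed to 167 CPM, against 0.887 to 6.99 CPM. In the spindle and kinetochore role, Hmmr, a spindle assembly factor, reached 36.4 CPM and 38.4 times the highest other library, Tpx2, an activator of Aurora A, 33.4 CPM and 26.9 times, and Kif11, the motor that separates the spindle poles, 22.7 CPM and 10.5 times. The remaining 5, the passenger genes Birc5 and Cdca8, the kinetochore genes Cenpe and Cenpf and the microtubule gene Nusap1, had 16.6 to 29.5 CPM and stood 10.8 to 21.9 times above. The 8 genes summed to 197 CPM, against 2.42 to 7.75 CPM. Prc1, which bundles microtubules of the central spindle, reached 33.2 CPM and 32.5 times, Kif20a, a motor of the same structure, 26.4 CPM and 20.9 times, and Kif23, another, 5.84 CPM and 4.7 times. The cytokinesis genes summed to 65.4 CPM, against 0.129 to 3.11 CPM. Mki67, whose protein coats mitotic chromosomes, had 88.4 CPM and 16.0 times the highest other library, and Top2a, the topoisomerase that untangles sister chromatids, 75.6 CPM and 20.0 times.

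Among the S-phase genes the excess was uneven. Rrm2 had 97.5 CPM, 6.79 times the highest other library. The helicase subunits Mcm6, Mcm5, Mcm2 and Mcm3 stood at 4.83, 4.25, 2.67 and 2.59 times the highest other level. Pcna had 75.3 CPM, 2.39 times the highest, Tyms 27.9 CPM, 2.96 times, and Ccne2, which encodes a cyclin of the entry into S phase, 6.58 CPM, 2.27 times. The least separated were Ccne1, the other cyclin E gene, with 5.62 CPM against at most 5.27 CPM elsewhere, and Tk1 with 49.5 CPM against at most 47.0 CPM. The 10 genes summed to 416 CPM, against 57.8 to 124 CPM.

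**Figure D2:**
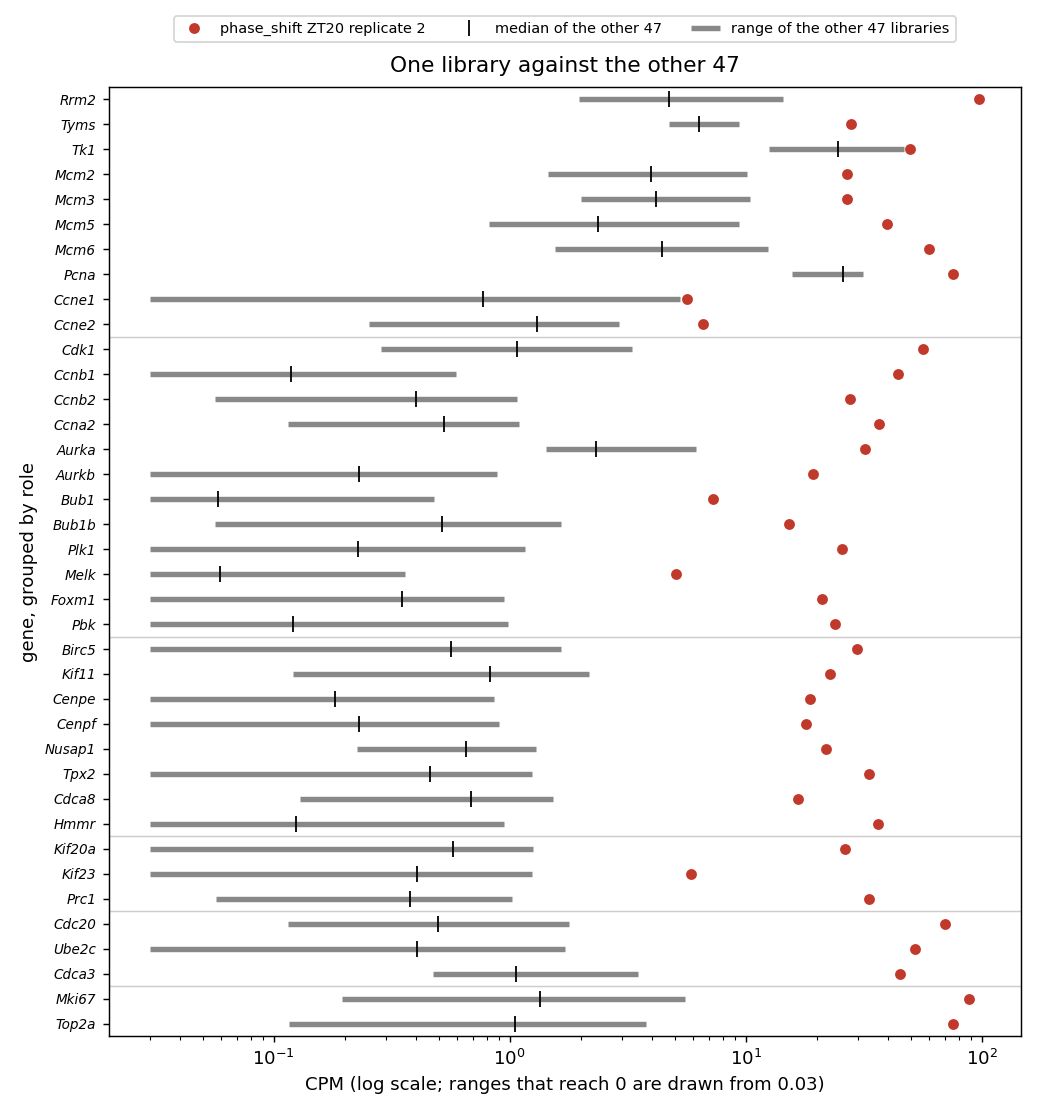
Level of each of the 38 genes in phase_shift ZT20 replicate 2 (red points), beside the median (black ticks) and the range (grey bars) of the other 47 libraries, as CPM on a logarithmic axis, grouped by role. Every red point lies right of its grey bar, by 74.7 times for Ccnb1 and by 1.05 times for Tk1.

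Lists of further cell cycle genes followed in the same library. Of 63 other mitosis genes, 61 were at their highest of the 48 libraries there and 53 were at least 3 times the highest other library. The largest ratios were those of Ckap2l (33.9), Ckap2 (30.5) and Knl1 (25.1), the first 2 spindle proteins and the last a kinetochore scaffold. Of 49 other replication genes, 45 were highest there and 17 at least 3 times, led by Esco2 (15.5), which acetylates cohesin in S phase, Uhrf1 (11.2), needed to maintain DNA methylation, and Rad51ap1 (9.48). Of 20 genes of the E2F, MYB and DREAM regulators, 10 were highest and 3 at least 3 times, these being Mybl1 (6.63), Rbl1 (3.27) and E2f7 (3.18). E2f1 had 17.3 CPM there and 2.48 to 6.8 CPM elsewhere. Of 14 G1 cyclins and CDK inhibitors, 6 were highest and 2 at least 3 times, Cdkn3 (19.7) and Cdkn2c (4.82), and Cdkn2d followed with a ratio of 2.1. Ccnd1, the cyclin of the G1 phase, had 49.6 CPM, below the highest other library at 50.4 CPM, and Cdkn1a, the inhibitor p21, had 47.9 CPM, against 0.455 to 38 CPM.

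Among other protein coding genes with the largest ratios to the highest other library were Kifc1 (20.6), a spindle motor, Prr11 (20.4), Kntc1 (18.3), Neurl1b (17.1), Knstrn (14.8), Arhgef39 (14.4), Diaph3 (12.9), Aunip (12.4) and Akr1c18 (10.3). In the other direction, Hsd3b5, a liver hydroxysteroid dehydrogenase of male mice, had 8 CPM, against 36.3 to 278 CPM in the other libraries. Mup1, a major urinary protein, had 2.5 CPM, against 6.97 to 78.8 CPM. Adgrf1, Slc22a28 and Car1 were also below the lowest of the other 47, with 0.794, 1.87 and 1.19 CPM, against at least 3.02, 5.6 and 3.29 CPM.

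Markers of cell types were read in the same library. The 12 hepatocyte markers summed to 126907 CPM, against 82919 to 144929 CPM in the other libraries, of which Alb, the albumin gene, held 90545 CPM. Of the 12, 8 lay below their median over the other 47, and Serpina1a (1518 CPM), Cyp2e1 (2433 CPM) and Ahsg (5025 CPM) were lower than in any other library, against at least 1802, 3273 and 5796 CPM. The 12 Kupffer cell markers summed to 573 CPM, against 23.2 to 935 CPM, and the 10 sinusoidal endothelial markers to 409 CPM, against 37.8 to 603 CPM. Markers of T and NK cells summed to 4.77 CPM, against 4.07 to 11.5 CPM, and erythroid markers to 459 CPM, against 238 to 785 CPM. For precursors of granulocytes, which divide in the marrow, the 8 markers summed to 2.5 CPM, against 0 to 1.23 CPM. Prtn3 (1.59 CPM) and Ngp (0.284 CPM) were highest of the 48 there, Elane had 0.511 CPM, against 0 to 0.71 CPM, and Camp 0.113 CPM. Mpo, Ctsg, Ltf and Fcnb were at 0, which was also their median in the other 47. The list of fetal or tumour liver genes summed to 89.6 CPM, against 9.59 to 31.2 CPM, of which Scd2, a fatty acid desaturase, held 78.5 CPM, against 1.23 to 17.6 CPM. Of that list Afp had 3.23 CPM, within the 0.958 to 3.44 CPM of the other libraries, H19 had 0.511 CPM, and Igf2 and Dlk1 were at 0. The 12 stellate cell and fibroblast markers summed to 398 CPM, against 139 to 445 CPM. Of these, 4 lay below their median over the other 47, Hhip with 1.3 CPM was lower than in any other library, and Col1a1 and Col3a1 were highest there, with 19.4 and 62.4 CPM, against at most 16.1 and 50.9 CPM. The part of these cells in the excess of the cell cycle genes was not tested.

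Among the other 47 libraries the highest level was most often in a shifted liver in the labelled day. For 15 of the 38 genes it was at phase_shift ZT8, for 8 of these in replicate 2, and for 10 at phase_shift ZT4, for 9 of these in replicate 3. In that ZT4 library Cdc20 reached 1.78 CPM, Ube2c 1.72 CPM, Cdca3 3.49 CPM and Ccna2 1.1 CPM, against 69.6, 52.3, 45.0 and 36.8 CPM in the ZT20 library. The ZT4 library is one of those with a high mitochondrial share, at 13.1%. Some of the highest values lay near the floor, as for Ccnb1 (0.592 CPM), Bub1 (0.48 CPM) and Melk (0.36 CPM) at phase_shift ZT8. The share of all genes with their highest level in these groups was not computed, so the counts cannot be read as a trait of the 38 genes. These highest values are a description and were not tested.

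**Figure D3:**
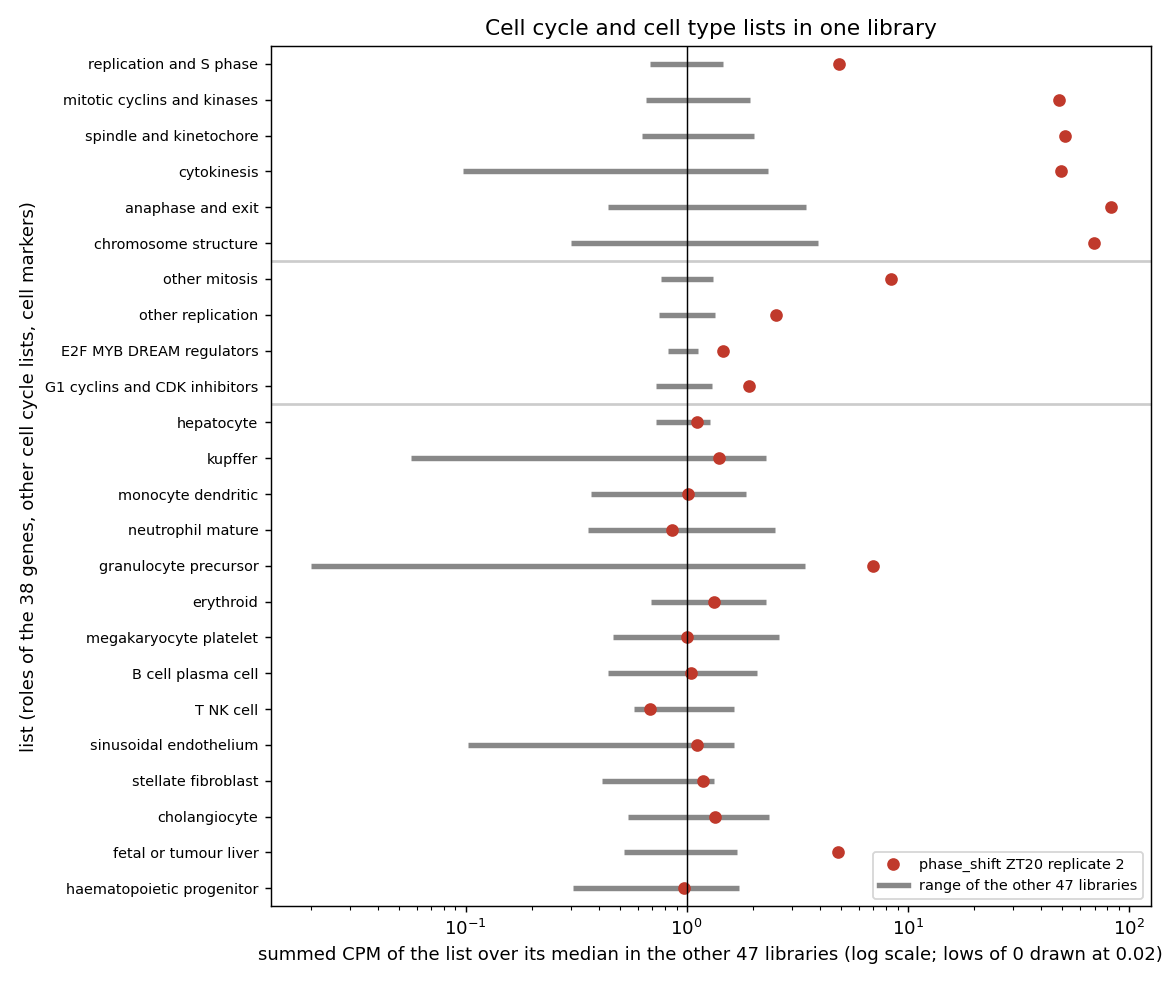
Summed CPM of each list in phase_shift ZT20 replicate 2 (red points) and its range in the other 47 libraries (grey bars), divided by the list's median in those 47, on a logarithmic axis. The 6 roles and the 4 other cell cycle lists lie right of their grey bars. Of the 14 cell marker lists, the granulocyte precursor and the fetal or tumour liver lists do so, and the other 12 lie within theirs.

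The first comparison set the shifted livers against the control livers at ZT20, where this library belongs. With all 48 libraries, 43 of 14555 genes were called at an adjusted p under 0.05 (edgeR quasi-likelihood test with Benjamini-Hochberg adjustment over all genes tested), 0.295% of them. Of the 32 proliferation genes tested, 18 were called, all higher in shifted livers, where 0.289% of all genes were called higher. All 32 had a log2 fold change above 0 (50.7% of all genes) with a median of 3.29, and 30 had an unadjusted p under 0.05 (7.33% of all genes). Without phase_shift ZT20 replicate 2, 0 genes were called, 510 (3.5%) had an unadjusted p under 0.05, 0 of them among the 32, and 25 of the 32 lay above 0 (49.6%) with a median of 0.25. The count also changed with the tool, the fit and the control libraries. DESeq2 called 12 of the 20 to which it gave an adjusted p (60 of all genes, 0.413%) and gave none to the other 12. With limma-voom, with limma on the FPKM values, with the 8 ZT20 libraries alone, with the replicate number as a block and without the 8 libraries with over 9.6% mitochondrial counts, 0 of the 32 and 0 of all genes (0%) were called, and 0 of the 32 when any of control ZT20 replicates 1, 2, 3 or 4 was left out. Labels do not say whether libraries come from separate animals, so p-values here measure the spread between libraries.

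Values by library, for genes chosen mainly by their level in each role, show how far a single library carried these differences. Cdc20 had 0.518, 69.6, 0.419 and 0.686 CPM in the 4 shifted livers, against 0.295, 0.115, 0.458 and 0.607 CPM in the 4 control livers. Its log2 fold change was 5.46 (SE 1.01, adjusted p = 0.0183), and 0.51 (SE 0.63, adjusted p = 1) without the library. Ccnb2, the second B-type cyclin gene, had 0.403, 27.6, 0.539 and 0.571 CPM in shifted livers, against 0.0589, 0.63, 0.343 and 0.182 CPM in control livers. Apart from the second shifted library the groups overlap in both genes.

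Prc1 had 0.173, 33.2, 0.24 and 0.8 CPM in shifted livers, against 0.353, 0.229, 0.0572 and 0.304 CPM in control livers, and the log2 fold change of 5.03 (adjusted p = 0.0183) became 0.70 (adjusted p = 1). Mki67 had 1.9, 88.4, 0.659 and 1.89 CPM in shifted livers, against 0.648, 1.43, 0.858 and 1.82 CPM in control livers. Top2a had 1.55, 75.6, 1.26 and 1.09 CPM, against 1.41, 1.2, 1.03 and 1.76 CPM. In Top2a the sign turned without the library, with a log2 fold change of 3.75 with it and -0.10 without it. Birc5, the survivin gene, had 0.403, 29.5, 0.24 and 0.686 CPM in shifted livers, against 0.353, 0.458, 0.4 and 0.243 CPM in control livers. Kif11 had 0.805, 22.7, 0.479 and 0.914 CPM, against 1.47, 1.03, 0.915 and 0.121 CPM, and was not called (log2 fold change 2.65, adjusted p = 0.0969). Kif20a had 0.518, 26.4, 0.659 and 1.2 CPM in shifted livers, against 0.589, 0.515, 0.858 and 0.425 CPM in control livers. Cdca3 had 1.44, 45.0, 0.839 and 1.14 CPM, against 0.766, 0.687, 0.515 and 0.972 CPM. Aurka had 2.13, 32.0, 1.62 and 3.48 CPM in shifted livers, against 1.53, 3.15, 2.29 and 4.31 CPM in control livers, and was not called (1.71, adjusted p = 0.288). In each of these genes at least 1 of the other 3 shifted libraries lay within the range of the 4 controls.

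By role, 5 of 7 tested genes of the cyclin and kinase group were called at ZT20 with all libraries, 5 of 7 of the spindle group, 2 of 3 of cytokinesis, 3 of 3 of anaphase, 2 of 2 of chromosome structure and 1 of 10 of the S-phase genes, Rrm2. Without the library the role medians were 0.11, 0.17, 0.34, 0.51, 0.09 and 0.33, in the same order. Of 36 other mitosis genes tested, 13 were called higher and 0 lower with all libraries, among them Iqgap3 (log2 fold change 4.86) and Espl1, the separase gene (4.61), and 0 of 36 without it. Of 42 other replication genes, 3 were called with all libraries, Tcf19 and Gins2 among them, and 0 without the library.

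Pcna and Tyms are the genes whose 4 shifted libraries all lay above the 4 control libraries at ZT20. That held for 2.18% of all genes tested, and for 3.37% without phase_shift ZT20 replicate 2. Pcna had 26.9, 75.3, 27.9 and 28.9 CPM in shifted livers, against 22.7, 23.9, 24.1 and 24.8 CPM in control livers. Tyms had 7.25, 27.9, 7.37 and 7.37 CPM, against 5.42, 6.47, 5.32 and 6.13 CPM. Neither was called, with log2 fold changes of 0.65 and 1.01 (adjusted p = 0.124 and 0.0883) with all libraries, and 0.18 (SE 0.12) and 0.28 (SE 0.18) without the library. The minichromosome maintenance genes were uneven among the other shifted libraries. Mcm6 had 7.65, 59.9, 4.73 and 12.4 CPM in shifted livers, against 4.77, 4.3, 3.95 and 8.69 CPM in control livers. Mcm5 had 4.95, 39.8, 2.94 and 8.63 CPM, against 2.3, 1.72, 1.77 and 6.32 CPM. In both genes the fourth control library was the highest control, and it exceeded shifted replicates 1 and 3. Tk1 overlapped, with 33, 49.5, 29.1 and 38.8 CPM in shifted livers, against 24.6, 36, 33.1 and 27.9 CPM in control livers.

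At ZT8, 26 of the 32 genes had a log2 fold change above 0, and none was called with all libraries. With all 48 libraries, 19 genes (0.131%) were called, 2 of them higher in shifted livers (0.0137%), and 0 of the 32 proliferation genes, of which Top2a and Mki67, 2 genes, reached an unadjusted p under 0.05, as 11.7% of all genes did. With DESeq2 66 genes were called (0.472%), 0 of the 20 proliferation genes to which it gave an adjusted p, and with limma-voom 11 (0.0756%), 0 of the 32. Without phase_shift ZT20 replicate 2, which belongs to another time but to the same fit, 23 genes (0.158%) were called, 3 of them higher in shifted livers (0.0206%). Top2a was among those 3 (log2 fold change 2.02, SE 0.43, adjusted p = 0.0281), and with all libraries its SE was 0.82 (adjusted p = 0.351). Over the 57 alternatives that gave one, its adjusted p ran from 0.0281 to 0.856 and passed in 1, that without the ZT20 library. Mki67 had a log2 fold change of 1.95 (SE 0.45, adjusted p = 0.06) without that library. Of all genes, 48.2% had a log2 fold change above 0, and the median of the 32 was 0.65 with all libraries and 0.64 without that library, against -0.01 for all genes. Without it 10 of the 32 had an unadjusted p under 0.05 (12% of all genes).

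Top2a had 2.72, 3.78, 2.31 and 2.32 CPM in the 4 shifted livers at ZT8, against 0.949, 0.52, 0.653 and 0.521 CPM in the 4 control livers. Mki67 had 2.72, 5.53, 2.72 and 3 CPM, against 1.07, 0.26, 0.891 and 1.27 CPM. All shifted values of both genes exceeded all control values, and the second shifted library was the highest. At this level 1 CPM stands for fewer than 20 counts, so counting error is large. Ccnb2 had 0.71, 0.721, 0.947 and 1.07 CPM, against 0.475, 0.26, 0.178 and 0.232 CPM (log2 fold change 1.52, adjusted p = 0.251 without the ZT20 library). Cenpf, a kinetochore protein, had 0.828, 0.901, 0.71 and 0.679 CPM, against 0.178, 0, 0.178 and 0.348 CPM (2.05, adjusted p = 0.23). Cdc20 had 0.828, 0.721, 1.18 and 1.3 CPM in shifted livers, against 0.297, 0.195, 0.713 and 0.116 CPM in control livers.

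Those 5 genes, with Cdk1 and Mcm3, were the 7 of 32 whose shifted libraries all lay above the controls at ZT8, which held for 2.12% of all genes tested. Outside these shifted libraries and the ZT20 library, Cenpf reached at most 0.621 CPM. It thus passed the filter on low counts largely through the group where it was high, and its place among the 7 is no separate support. Cdk1 had 2.19, 1.08, 1.66 and 1.07 CPM, against 0.297, 0.781, 0.713 and 0.811 CPM. None of the 32 had all shifted libraries below the controls, as 1.9% of all genes had. By role the medians of the log2 fold change without the ZT20 library were 1.98 for chromosome structure, 1.14 for the cyclins and kinases, 0.67 for the spindle, 0.65 for anaphase, 0.59 for cytokinesis and 0.27 for S phase. Among other mitosis genes, 27 of 36 were above 0 with a median of 0.46 and 0 called, and Iqgap3 had a log2 fold change of 1.95 (adjusted p = 0.245). Among other replication genes 22 of 42 were above 0, with a median of 0.06 and 0 called.

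Markers of other cell types were read at ZT8 as well. All 12 Kupffer cell markers had a log2 fold change above 0, with a median of 0.70 and 0 called, and all 10 endothelial markers had one too, with a median of 0.51 and 0 called. The Kupffer sums were 388, 935, 204 and 666 CPM in shifted livers, against 535, 23.2, 298 and 438 CPM in control livers, and the low control library is 1 of 8 libraries with more than 9.6% mitochondrial counts. Without the 8 libraries and the ZT20 library, Top2a had a log2 fold change of 1.97 (adjusted p = 0.0652) and Mki67 1.69 (adjusted p = 0.0459). Top2a missed the threshold and Mki67 passed it, 1 of 14 genes (0.0962% of all genes) that did. The part of other cell types in the difference was not tested.

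**Figure D4:**
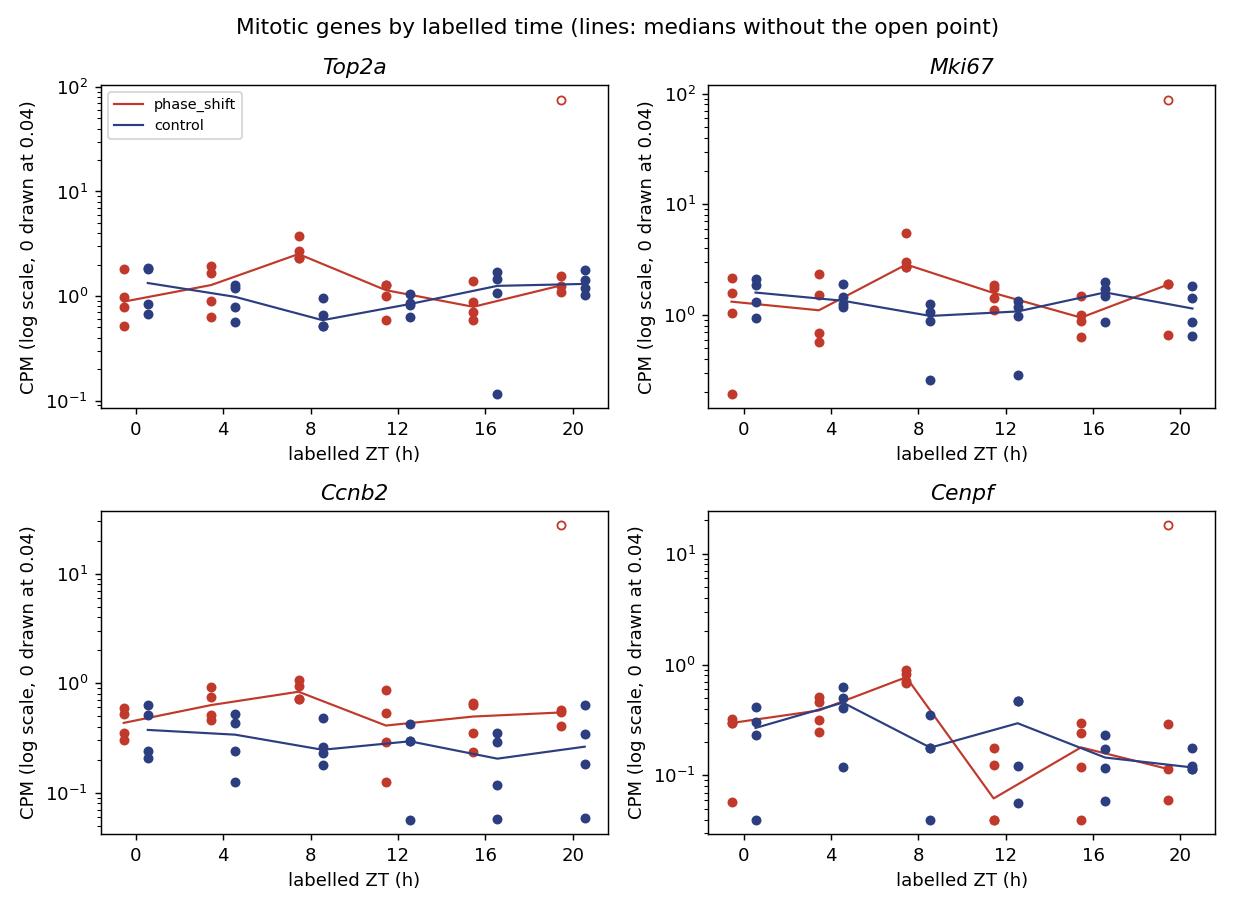
CPM of Top2a, Mki67, Ccnb2 and Cenpf on logarithmic axes against labelled ZT, with 1 point per library (red phase_shift, blue control), lines through the medians, and phase_shift ZT20 replicate 2 as an open point that the lines leave out. At ZT8 all 4 red points lie above all 4 blue points in each panel, and the open points reach 75.6, 88.4, 27.6 and 18.0 CPM.

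At the remaining times no proliferation gene was called by edgeR, with or without phase_shift ZT20 replicate 2. At ZT0, ZT12 and ZT16 no gene of the 14555 was called (0%) in either case, and at ZT4 17 genes (0.117%) were called with all libraries and 19 (0.131%) without that library. Both limma-voom and DESeq2 were run with that library only. By limma-voom 0 of the 32 were called at these 4 times too, and by DESeq2 0 of the 20, 18, 20 and 6 to which it gave an adjusted p at ZT0, ZT4, ZT12 and ZT16. Of all genes, limma-voom called 15 (0.103%) and DESeq2 113 (0.899%) at ZT4, and both called 0 (0%) at ZT0, ZT12 and ZT16. With all libraries, 0 of the 32 had an unadjusted p under 0.05 at ZT0 (7.37% of all genes), 0 at ZT4 (9.21%), 1 at ZT12 (4.98%) and 0 at ZT16 (4.42%), and without that library 1 (7.41%), 2 (9.63%), 3 (5.1%) and 1 (4.65%). At ZT0, 16 of the 32 lay above 0 (50.7% of all genes), at ZT4 24 (49.3%), at ZT12 18 (48.7%) and at ZT16 15 (51.1%), with medians of 0.03, 0.26, 0.10 and -0.02, the same in both cases. The ZT4 median was -0.06 without phase_shift ZT4 replicate 3, and the ZT16 median ran from -0.11 to 0.21 when single libraries were left out. Rrm2 had 2.97, 3.02, 3 and 2.91 CPM in the shifted livers at ZT4, against 3.93, 8.6, 6.06 and 4.72 CPM in control livers (log2 fold change -0.91, adjusted p = 0.70 with all libraries and 0.236 without). It was the only one of the 32 genes with all shifted libraries below the controls at that time, as 2.36% of all genes had.

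Cdca3 had all shifted libraries above the controls at ZT4 (1.33% of all genes), with 1.83, 1.38, 3.49 and 1.52 CPM in shifted livers, against 1.18, 0.962, 1.05 and 0.931 CPM in control livers. At ZT12 Tk1 had 23.9, 24.8, 19.8 and 23.9 CPM in shifted livers, against 29.2, 38.9, 34.1 and 28.7 CPM in control livers (log2 fold change -0.55, SE 0.20, adjusted p = 0.806). Tk1 and Cdca8, a passenger complex gene, had all shifted libraries below the controls (2.1% of all genes) and Bub1b all above (2.25%). Bub1b had 0.524, 0.496, 0.939 and 0.699 CPM in shifted livers, against 0.426, 0.0567, 0.295 and 0.234 CPM in control livers. At ZT0, Aurka had 6.14, 3.83, 2.54 and 2.32 CPM in shifted livers, against 1.72, 2.7, 2.33 and 2.3 CPM in control livers (0.86, adjusted p = 0.674), with the 2 highest values in libraries over the mitochondrial limit. At ZT16, Ccnb2 had 0.637, 0.353, 0.659 and 0.237 CPM, against 0.118, 0.347, 0.0577 and 0.29 CPM (1.21, adjusted p = 1). No gene of the 32 was free of overlap at ZT0 or ZT16.

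Averaged over the 6 times, 0 genes (0%) were called by edgeR, while 939 genes (6.45%) had an unadjusted p under 0.05. Of the 32, 31 had a log2 fold change above 0 (49.3% of all genes) with a median of 0.69, and 18 had an unadjusted p under 0.05. Without phase_shift ZT20 replicate 2, 25 of 32 lay above 0 (47.9% of all genes), the median was 0.20 and 4 had an unadjusted p under 0.05 (6.21% of all genes), these being Ccnb2, Bub1b, Foxm1 and Top2a. Again 0 genes were called, with 904 at an unadjusted p under 0.05. With all libraries 15 genes (0.103%) were called by DESeq2, 0 (0%) by limma-voom and 1 (0.00687%) by limma on the FPKM values, with 0 of the 32 among them (DESeq2 gave an adjusted p to 20 of the 32).

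Ccnb2 had the smallest p. Over 23 shifted libraries, leaving out the ZT20 library, it ran from 0.124 to 1.07 CPM with a median of 0.539, against 0.0567 to 0.634 CPM with a median of 0.275 in 24 control libraries, so the arms overlap. The log2 fold change was 1.53 (SE 0.37, adjusted p = 0.175) with all libraries and 0.91 (SE 0.22, adjusted p = 0.234) without that library. Pcna had a median of 25.9 CPM in shifted and 25.8 CPM in control livers. Tk1 was the gene below 0 with all libraries, at -0.06 (SE 0.08). In the pathway lists the smallest p among other mitosis genes were those of Iqgap3 (1.62, adjusted p = 0.394), Anln (1.00) and Cenpa (0.53), which had 0.86, 0.40 and 0.29 without the library. Among other replication genes they were those of Tcf19 (0.49), Chaf1b (0.50) and Chaf1a (0.55), among the regulators those of Lin9 (0.28), E2f7 (0.73) and E2f4 (0.09), and among G1 genes those of Cdkn1b (0.13), Cdkn2c (0.39) and Cdkn2d (0.25), none called.

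Over the day, 4 of the 32 genes tested, Rrm2, Ccne1, Ccne2 and Tk1, all of S phase, were called rhythmic in both arms. Of all genes 14.2% were called in both with all libraries and 14.4% without phase_shift ZT20 replicate 2, so the share of the 32 was no higher than that of all genes. A curve with a period of 24 h was fitted to each arm, and a gene is called rhythmic at an adjusted p under 0.05 (edgeR). Without phase_shift ZT20 replicate 2, 8 of the 32 genes were called in the shifted arm, where 27.6% of all genes were called, and 5 in the control arm (28.3%). The shifted arm had Rrm2, Ccne1, Ccne2, Tk1, Cenpf, Cdca3, Mki67 and Top2a, and the control arm Rrm2, Ccne1, Ccne2, Tk1 and Bub1b. When the 8 libraries with over 9.6% mitochondrial counts were left out too, 8 and 5 were called (32.5% and 23.5% of all genes). Birc5 then stood in place of Cdca3 in the shifted arm, and Pcna in place of Bub1b in the control arm. Cenpf passed the filter on low counts largely through the shifted libraries at ZT8, where it was high. Its calls in the shifted arm are therefore no separate support. With all 48 libraries, 28 of the 32 were called in the shifted arm (28.2% of all genes) and 4 in the control arm (27.3%), the S-phase genes Tk1, Ccne1, Ccne2 and Rrm2. Aurkb, among the 28, had 19.3 CPM in phase_shift ZT20 replicate 2 and at most 0.885 CPM elsewhere. It passed the filter on low counts largely through that library, so its call is no separate support. The control calls went down to 2, Ccne1 and Tk1, when any of control ZT0 replicates 1 and 2, ZT4 replicates 1 and 4, ZT12 replicate 3 or ZT16 replicates 2 and 4 was left out. Tk1 and Ccne1 kept their control call in all 48 runs that left out 1 library, and Ccne2 kept it in 41. Rrm2, at an edgeR adjusted p of 0.0475 with all libraries, kept it in 20 of the 48. DESeq2 called Tk1, Ccne1 and Ccne2 in the control arm, 3 of the 11 to which it gave an adjusted p (30.9% of all genes). The 28 calls in the shifted arm also changed with the tool and the fit, to 5 of 32 with limma-voom (26.9% of all genes), 5 with limma on the FPKM values (27.6%), 10 with the replicate block (27.6%) and, with DESeq2, 7 of the 11 to which it gave an adjusted p (30.6%).

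Rrm2 was low at ZT0, with 2.2, 2.87, 3.72 and 2.38 CPM in shifted livers, against 3.09, 2.44, 2.07 and 1.96 CPM in control livers. At ZT12 it had 10.5, 8.75, 12.3 and 10.9 CPM, against 8.94, 7.66, 12.1 and 8.73 CPM. At ZT16 it had 14, 7.42, 10.7 and 8.99 CPM, against 8.52, 10.5, 5.89 and 7.6 CPM. Every value at ZT12 and ZT16 exceeded every value at ZT0 in both arms. Without the ZT20 library the fitted amplitude was 1.07 log2 units (SE 0.13), with a peak at ZT 14.0, in the shifted arm, and 0.85 (SE 0.13), with a peak at ZT 11.7, in the control arm (adjusted p = 5.28e-08 and 1.53e-05). The rhythms did not pass the test of a difference between arms (edgeR adjusted p = 0.165).

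Of the 32 genes Ccne1 had the largest fitted peak to trough ratio in either arm without the ZT20 library. At ZT4 it had 0.229, 0.817, 0.736 and 0.443 CPM in shifted livers, against 0, 0.722, 0.583 and 1.12 CPM in control livers. At ZT12 it had 2.85, 3.47, 3.29 and 3.03 CPM, against 2.43, 1.87, 3.89 and 1.52 CPM, above every ZT4 value in each arm. At ZT8 the shifted libraries had 3.49, 1.8, 5.27 and 2.21 CPM, against 1.36, 1.37, 1.31 and 2.72 CPM in control livers, which overlap. Without the ZT20 library the fitted peak lay at ZT 10.9 in the shifted arm and ZT 10.8 in the control arm, with peak to trough ratios of 9.05 and 6.4. With all libraries the peak lay at ZT 12.3 and ZT 10.8, with ratios of 5.07 in the shifted and 6.38 in the control arm, so the order of the arms turned. Ccne2 peaked later, at ZT 14.3 and ZT 15.3 without that library, with ratios of 3.19 and 2.27. Neither differed between arms by the test (adjusted p = 0.831 and 0.58).

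Without the ZT20 library, Tk1 had its fitted peak at ZT 17.4 in the shifted arm and at ZT 14.6 in the control arm, with amplitudes of 0.42 (SE 0.08) and 0.59 (SE 0.09). At ZT16 it had 40.2, 42.5, 30.3 and 33.2 CPM in shifted livers, against 47, 35.1, 35.7 and 43.1 CPM in control livers. At ZT8 it had 23.7, 24.5, 23.9 and 20.8 CPM, against 29.3, 39.7, 23.4 and 23.2 CPM. The rhythm did not pass the test of a difference between arms (edgeR adjusted p = 0.171). The 4 mitotic genes called in the shifted arm without the library peaked in its labelled day. Cdca3 peaked at ZT 3.6, Cenpf at ZT 5.8, Top2a at ZT 6.9 and Mki67 at ZT 7.8. Their amplitudes were 0.63, 1.18, 0.56 and 0.61, in that order. Cenpf passed the filter on low counts largely through the shifted libraries at ZT8, so its rhythm call and peak are no separate support. Top2a (adjusted p = 0.125) and Mki67 (adjusted p = 0.175) did not pass the test of a difference between arms.

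No gene of the 32 passed the test of a difference in rhythm. With all libraries 27 genes (0.186%) did by edgeR, while 14 of the 32 had an unadjusted p under 0.05 (19.3% of all genes), and without the library 32 genes (0.22%) did, and 5 of the 32 had an unadjusted p under 0.05 (19.6% of all genes). For a time course that differs in any way between the arms, 20 genes (0.137%) were called with all libraries and 16 (0.11%) without, 0 of them among the 32, of which 23 (11% of all genes) and 5 (9.57%) had an unadjusted p under 0.05. By DESeq2, with all libraries, 0 of the 2 genes with an adjusted p passed the first test (2.25% of all genes) and 1 of 20, Mki67, the second (0.867%). By limma-voom 0 of the 32 passed either test (0.131% and 0.151% of all genes). Of the 32, Prc1 had the smallest p of the second test with all libraries (adjusted p = 0.161). Without phase_shift ZT20 replicate 3, Prc1 (edgeR adjusted p = 0.0488) and Mki67 were called. The other 47 runs that left out a single library gave the same count of 0 as all libraries. The share of all genes called without replicate 3 is not given here.

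**Figure D5:**
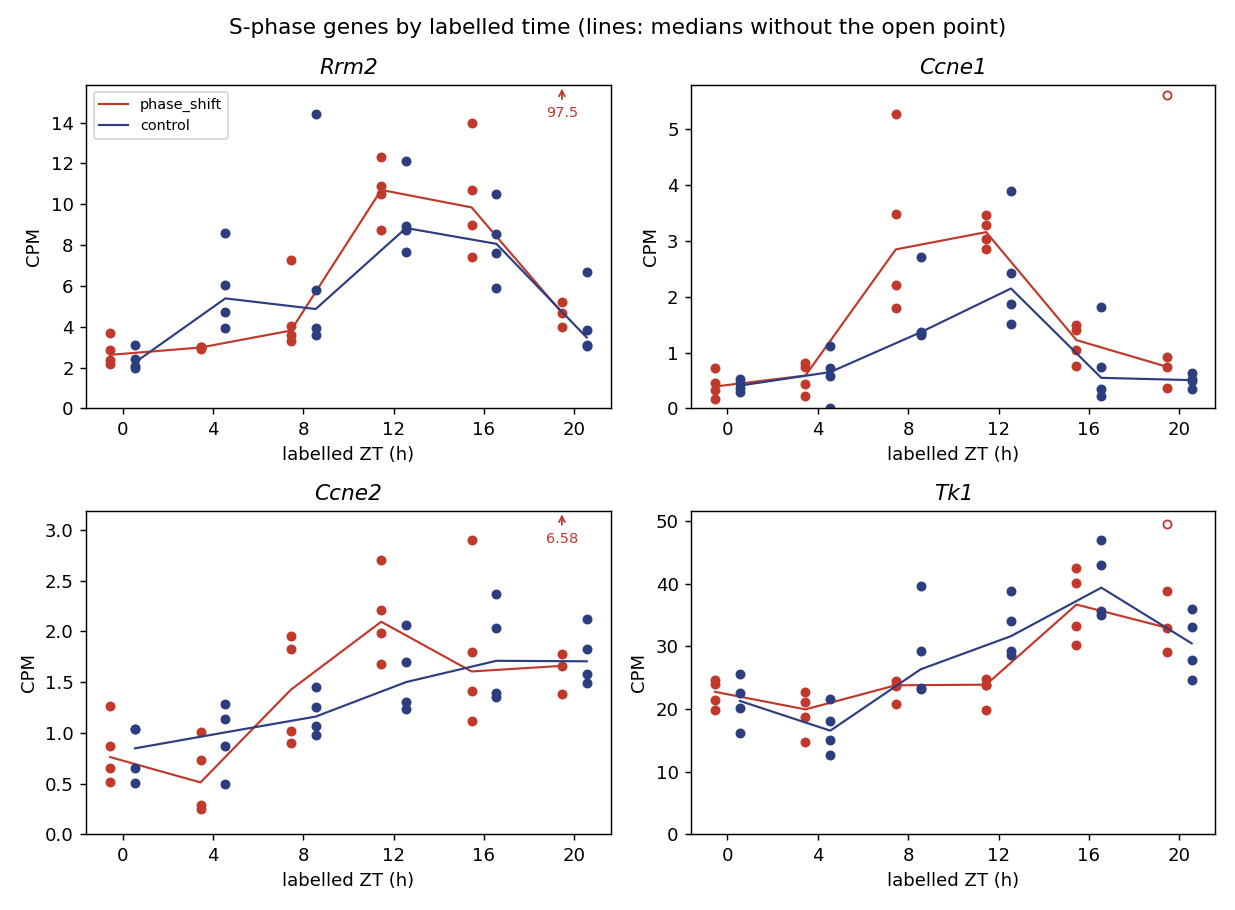
CPM of Rrm2, Ccne1, Ccne2 and Tk1 against labelled ZT, with 1 point per library (red phase_shift, blue control) and lines through the medians that leave out phase_shift ZT20 replicate 2, shown as an open point or, where it lies above the axis, by an arrow with its value (97.5 and 6.58 CPM). Rrm2 and Ccne1 are lowest around ZT0 and highest around ZT12 in both arms, and Tk1 is highest at ZT16.

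The other cell cycle lists held rhythmic genes too. Without the library, 9 of 36 other mitosis genes were called in the shifted arm and 5 in the control arm, 13 and 11 of 42 other replication genes, 4 and 5 of 19 regulators, and 5 and 3 of 11 G1 genes. These shares can be read against the 27.6% and 28.3% of all genes. Among those rhythmic in both arms were Gmnn, which encodes the licensing inhibitor geminin, Cdkn1a and Ccnd3. Ccnf, a cyclin of the ubiquitin ligase SCF, was the other mitosis gene called at ZT4, lower in shifted livers (log2 fold change -1.39, adjusted p = 0.0296 with all libraries and 0.0232 without the ZT20 library).

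The 8 libraries with over 9.6% mitochondrial counts, 4 in each arm, had less signal from Kupffer cells, with a median sum of 79.6 CPM, against 438 CPM in the other libraries without the ZT20 library. The 38 genes summed to 74 to 115 CPM (median 86.3) in them, against 73.2 to 144 CPM (median 102) in the other 39. Over groups, leaving out phase_shift ZT20 replicate 2, the sums of the 38 genes had medians of 86.5, 87.4, 114, 103, 116 and 118 CPM in shifted livers from ZT0 to ZT20, against 89.9, 85.6, 97.8, 105, 116 and 98.7 CPM in control livers. The ranges of these sums overlapped between the arms at each time. At ZT8 they were 99.0 to 123 CPM in shifted livers, against 90.7 to 103 CPM in control livers. S-phase genes made up most of them, with 73.2 to 90.7 CPM, against 74.2 to 89.5 CPM. The cyclin and kinase sums at ZT8 did not overlap (8.2 to 9.29, against 4.98 to 8.13 CPM). Neither did those of the spindle (4.98 to 7.75, against 3.09 to 4.69 CPM) and chromosome structure (5.03 to 9.31, against 0.781 to 2.02 CPM). The cytokinesis sums overlapped, and the anaphase sums met at 2.54 CPM. The role sums were not tested.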

How the data were processed

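Liver RNA of 48 mouse samples was sequenced, mapped and quantified by a company (Novogene) per the labels' protocols, on build mm10 per the submitters' processing notes. Neither aligner, counter nor strand setting is given in the sources used here. The authors deposited raw read counts per gene, which gave all tests and the CPM, and FPKM values, which equal the deposited counts divided by gene length and by 1 factor per library and were used only to compare levels between genes and in a limma alternative with a pseudocount of 0.1 on the log2 scale. Arms and times came from the sample titles.

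The 38 genes and all lists were chosen with earlier results of these data known. In edgeR 4.0.16 (R 4.3.3), genes were filtered with filterByExpr on the 12 groups, which left 14555, and scaled by TMM. The robust quasi-likelihood fit had 12 group means for the contrasts, and a 24 h cosine and sine per arm for rhythm. P-values were adjusted by Benjamini-Hochberg over the 14555 genes and called under 0.05. Every result of the main edgeR fits was repeated without phase_shift ZT20 replicate 2, on the same 14555 genes, since the filter was set with all 48 libraries. DESeq2, its size factors, no filter, limma, the libraries of a time alone, the replicate block and the covariate were not run without that library. Alternatives were DESeq2 1.42.0, its size factors, no filter, limma 3.58.1 (voom, and trend on FPKM), the libraries of a time alone, a replicate block, the mitochondrial share as a covariate, leaving out the 8 libraries over 9.6% of mitochondrial counts, and leaving out each library in turn.

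Libraries held 15370303 to 19639753 counts, and no pair of libraries of a group agreed within sampling noise (chi-square per degree of freedom 13.5 to 235 over 72 pairs). The fits were tested on counts simulated with the spread of the libraries other than phase_shift ZT20 replicate 2, so the test does not cover a library like that one. A log2 fold change of 1 was recovered in 98% of genes for the average difference and in 56% at ZT20. A control rhythm with an amplitude of 0.5 log2 units was recovered in 66%. False calls made up 6.16%, 3.25% and 4.71% of those called. The changed genes were drawn at random from all 14555. The shares recovered are therefore not those of genes near or below 1 CPM, such as most mitotic genes here. Values by library were given for the 2 genes of highest mean FPKM in each role and for the gene with the smallest p of each comparison. Other genes were named by the smallest p of the average difference (3 per list) and the largest ratio in phase_shift ZT20 replicate 2 (3 per list, and 10 other genes higher and 5 lower). Cdk1, Cenpf, Mcm5, Mcm6, Tyms, Ccne1, Ccne2, Bub1b, Ccnf, Iqgap3 and Espl1 at single times, the genes rhythmic in both arms, E2f1, Ccnd1 and Cdkn1a, and single marker genes were named after their values were seen. Some genes that these rules name are not reported here. Promoters came from RefSeq, build GRCm38.p6.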

Additional observations from a re-analysis of the deposited data

Results flagged for a closer look

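In each group of 4 libraries the gap between the highest or the lowest library and its nearest neighbour was set against the range of the group. A share above Dixon's critical value marks a library far from the others, which chance gives in about 1 of 20 groups of normally distributed values. The CPM of genes with few counts are not such values. A group at 0 in all but 1 library, as for Bub1 in phase_shift ZT4 replicate 1 (0.0571 CPM), is always marked. Of 540 groups, which include sums of the same genes, 77 were so marked, and 42 of the 77 lay in phase_shift ZT20 replicate 2. The 77 therefore cannot be set against that rate.

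In that library the marked levels of the mitotic cyclins, kinases and FOXM1 were Cdk1 56.7, Ccnb1 44.2, Ccnb2 27.6, Ccna2 36.8, Aurka 32, Aurkb 19.3, Bub1 7.26, Bub1b 15.2, Plk1 25.5, Melk 5.05, Pbk 23.9 and Foxm1 21.1 CPM. Those of the spindle and kinetochore genes were Birc5 29.5, Kif11 22.7, Cenpe 18.8, Cenpf 18, Nusap1 22, Tpx2 33.4, Cdca8 16.6 and Hmmr 36.4 CPM. Those of cytokinesis were Kif20a 26.4, Kif23 5.84 and Prc1 33.2 CPM, those of anaphase Cdc20 69.6, Ube2c 52.3 and Cdca3 45 CPM, and those of chromosome structure Mki67 88.4 and Top2a 75.6 CPM. The S-phase genes marked were Rrm2 97.5, Tyms 27.9, Mcm5 39.8, Mcm6 59.9, Pcna 75.3, Ccne1 5.62 and Ccne2 6.58 CPM. Tk1, Mcm2 and Mcm3 were not marked there. The sum of all 38 genes was marked at 1324 CPM, and the sums of the roles at 416 (S phase), 315 (cyclins and kinases), 197 (spindle), 65.4 (cytokinesis), 167 (anaphase) and 164 CPM (chromosome structure). The library held 17625159 counts, with a mitochondrial share of 7.01%, both within the range of the other libraries.

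Elsewhere in the shifted arm, the chromosome genes summed to 9.31 CPM in phase_shift ZT8 replicate 2, where Mki67 had 5.53 CPM, and to 2.88 CPM in phase_shift ZT16 replicate 3, where Mcm3 had 7.07 CPM. In phase_shift ZT4 replicate 3, Ccnb1 had 0.552, Aurkb 0.613, Cenpe 0.858 and Ube2c 1.72 CPM. Pcna had 22.1 CPM and Melk 0 in phase_shift ZT4 replicate 2, and Bub1 had 0.0571 CPM in replicate 1 of that time. At ZT0, Cenpf had 0.0581 and Mcm2 5 CPM in phase_shift replicate 4, and Cenpe 0.295 CPM in replicate 3. Ube2c had 1.6 CPM in phase_shift ZT8 replicate 3 and Kif23 1.24 CPM in replicate 4, Bub1 0.176 CPM in phase_shift ZT12 replicate 3, and Tyms 9.1 CPM in phase_shift ZT16 replicate 1.

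Among control libraries, Mcm5 had 9.37 and Mcm6 11.4 CPM in control ZT16 replicate 2, and Mcm5 6.32 CPM in control ZT20 replicate 4. Control ZT8 replicate 2, with a mitochondrial share of 12.8%, was low in Pcna at 15.8, Mcm3 at 2.02 and Nusap1 at 0.325 CPM. Control ZT8 replicate 4 had 2.72 CPM of Ccne1 and 0.463 CPM of Cenpe, and control ZT8 replicate 1 0.0593 CPM of Pbk. Cdk1 had 0.621 CPM in control ZT4 replicate 4, Tyms 5.05 CPM in control ZT4 replicate 2 and 6.12 CPM in control ZT16 replicate 3, and Ccnb1 0.51 CPM in control ZT12 replicate 2 and 0.462 CPM in control ZT16 replicate 3. Cenpe had 0.304 CPM in control ZT12 replicate 1, Hmmr was at 0 in control ZT12 replicate 3, and Cenpf had 0.177 CPM in control ZT20 replicate 1. Many of these levels stand for fewer than 10 counts. The causes were not tested.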

How the results depend on the processing

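With all libraries, the 18 genes called at ZT20 became 0 with limma-voom, with limma on FPKM, with the 8 libraries of that time alone, with the replicate block, without the 8 libraries of high mitochondrial share, and without these and phase_shift ZT20 replicate 2. Leaving out single libraries gave 0 to 25, with 0 without phase_shift ZT20 replicate 2 or any control ZT20 library. Their median log2 fold change of 3.29 was 1.49 with limma-voom, 1.18 on FPKM, and 0.28 without the 8 libraries and that one, and 0.25 to 3.66 when leaving out single libraries. Top2a at ZT20 had the opposite sign without phase_shift ZT20 replicate 2 (-0.10; single libraries left out gave -0.10 to 4.15), and without it and the 8 libraries Top2a (-0.01), Ccna2 (-0.12), Nusap1 (-0.07) and Foxm1 (-0.05) did. At ZT8, 1 of the 32 was called without the 8 libraries and that one (Mki67, with 0.0962% of all genes called), and 0 to 1 when leaving out single libraries. The ZT8 median of 0.65 was 0.41 on FPKM and 0.52 to 0.75 when leaving out single libraries. The ZT4 median ranged from -0.06, without phase_shift ZT4 replicate 3, to 0.43, and the ZT16 median from -0.11 to 0.21. Rhythm calls in the shifted arm numbered 28, but 7 with DESeq2 (of 11 with an adjusted p; 30.6% of all genes), 5 with limma-voom (26.9%), 5 on FPKM (27.6%), 10 with the replicate block (27.6%) and 8 without the 8 libraries and that one (32.5%), and 8 to 28 when leaving out single libraries. The calls without the 8 libraries and that one included Birc5, and those without that one alone Cdca3 instead. In the control arm the 4 calls became 2 with no filter (12.3% of all genes) and 2 without the 8 libraries (21.8%), and 2 to 5 when leaving out single libraries. DESeq2 called 1 of the 20 with an adjusted p for the time course (0.867% of all genes), and leaving out single libraries gave 0 to 2. Over 100 bases before the start, TTTGAA stood in 25.8%, TTCGAA in 0% and E2F letters in 3.23% of the promoters, against 6.76%, 0.437% and 0.796% of all genes. DESeq2 gave an adjusted p to 2 to 20 of the 32 genes, depending on the comparison, and its counts cover those alone. The average difference called 0 of the 32 under every alternative run, the replicate block included, which left 4 calls in the control rhythm. Same-numbered libraries did not pair (4 of 24 correlations over 0.1, from -0.422 to 0.156). The causes of these changes were not tested. Most mitotic genes lay near or below 1 CPM outside a single library, where differences of the size seen at ZT8 rest on few counts.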
